A study of Mus musculus with 2 samples.

Results

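The report covers 10 transcription factors that are labelled as lineage factors of mimetic cells: Spib and Sox8 of the microfold fate, Foxj1 of the ciliated fate, Hnf4a and Hnf4g of the enterocyte or hepatocyte fate, Neurod1 and Insm1 of the neuroendocrine fate, and Foxa2, Foxa3 and Spdef of the secretory fate. They were taken by symbol and not by a cut on a measured value, although earlier results of these data were known by then. All 10 were found among the 55487 genes counted. RNA was counted in single thymic epithelial cells of female C57BL/6J mice with a WT genotype, which were 4 weeks old. The PBS group received intraperitoneal phosphate-buffered saline on 7 consecutive days, and the spermidine group received spermidine, a polyamine, at 15 mg/kg in PBS on the same schedule. Cells bearing CD45 were depleted on beads, and mTEChi cells and post-Aire mTEClo cells were sorted, per the labels' protocols. The 4 hashed samples, 2 per treatment, were pooled into 1 run of 10x Genomics 3' v3 chemistry, so no sample had a library of its own. Whether the 2 samples of a treatment are different animals is not given, and every p-value here reflects the spread between hashed samples alone, which may be technical.

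Medullary thymic epithelial cells (mTECs) display antigens of other organs to developing T cells. Aire, a nuclear regulator, switches on many tissue genes in the mTEChi stage. After that stage some cells become mimetic cells, which take on programmes of microfold, tuft, ciliated, enterocyte, neuroendocrine, secretory, muscle or skin cells and express transcription factors that define those cells in their own organs. Spib is an ETS-family factor needed for microfold cells of the gut, and Sox8 acts beside it there. Foxj1 drives the genes of motile cilia, Hnf4a and Hnf4g are nuclear receptors of gut and liver epithelium, and Neurod1 and Insm1 act in endocrine differentiation. Foxa2 and Foxa3 are forkhead factors of endoderm that open chromatin, and Spdef is an ETS-family factor of goblet and other mucus-secreting cells.

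Each hashed sample was recognised by a DNA barcode of 15 bases on its antibody, and these sequences, printed 5′ to 3′, define the groups compared here.
PBS 1 (HT4): aaagcattcttcacg
PBS 2 (HT5): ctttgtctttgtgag
spermidine 1 (HT2): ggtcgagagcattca
spermidine 2 (HT3): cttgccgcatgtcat
They gave 1335 cells for PBS 1, 993 for PBS 2, 1374 for spermidine 1 and 1007 for spermidine 2, with 17668782 to 25673749 unique molecular identifiers (UMIs, counted molecules) per sample. Of the 4709 cells, 4496 were epithelial, at a median of 16829.5 UMIs, and no barcode occurred more than once. When hashtags HT6 and HT7, which the labels tie to no sample, were also read, 897 of the 4709 cells counted as doublets.

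Clusters were formed without the 10 factors among the clustering genes and were named from marker lists, so a class is called "like" its namesake. Of the 14 markers of the ciliated list, 14 were more than 2-fold higher in the ciliated-like cluster than in the other cells. The count was 14 of 14 for neuroendocrine-like, 16 of 16 for enterocyte- or hepatocyte-like and 10 of 12 for microfold-like cells, which also had 10 of 16 enterocyte markers above 2-fold. The secretory-like cluster had 9 of 16 secretory and 8 of 14 keratinocyte markers above 2-fold, so its name rests on less. A cluster of 94 cells led by the kallikrein genes Klk1b26 and Klk1b11 stayed unnamed. Each of the 2 clusters called Aire-stage had 7 of 16 markers above 2-fold, and 1 of them also had 7 of 14 muscle markers above 2-fold and none of its own list among its 10 leading genes. The erythroid gene Hbb-bs led 1 of the 2 transit-amplifying-like clusters.

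Of the 10 factors, 4 were highest in the class of their labelled fate: Spib, Sox8, Foxj1 and Insm1. The other 6 were highest elsewhere, namely Hnf4a, Foxa2 and Foxa3 in neuroendocrine-like, Hnf4g in microfold-like, Spdef in tuft-like and Neurod1 in the Klk1b-led cells, the last resting on few cells. Levels by class are UMI counts of the summed cells of a class scaled to a common total (CPM, counts per 1e6 UMIs), given as the mean ± SD over the 4 hashed samples of both treatments. These levels are a description, with no test between classes. The highest class of each factor was the same at a finer clustering (Leiden resolution 2) and with the factors among the clustering genes.

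**Figure D1:**
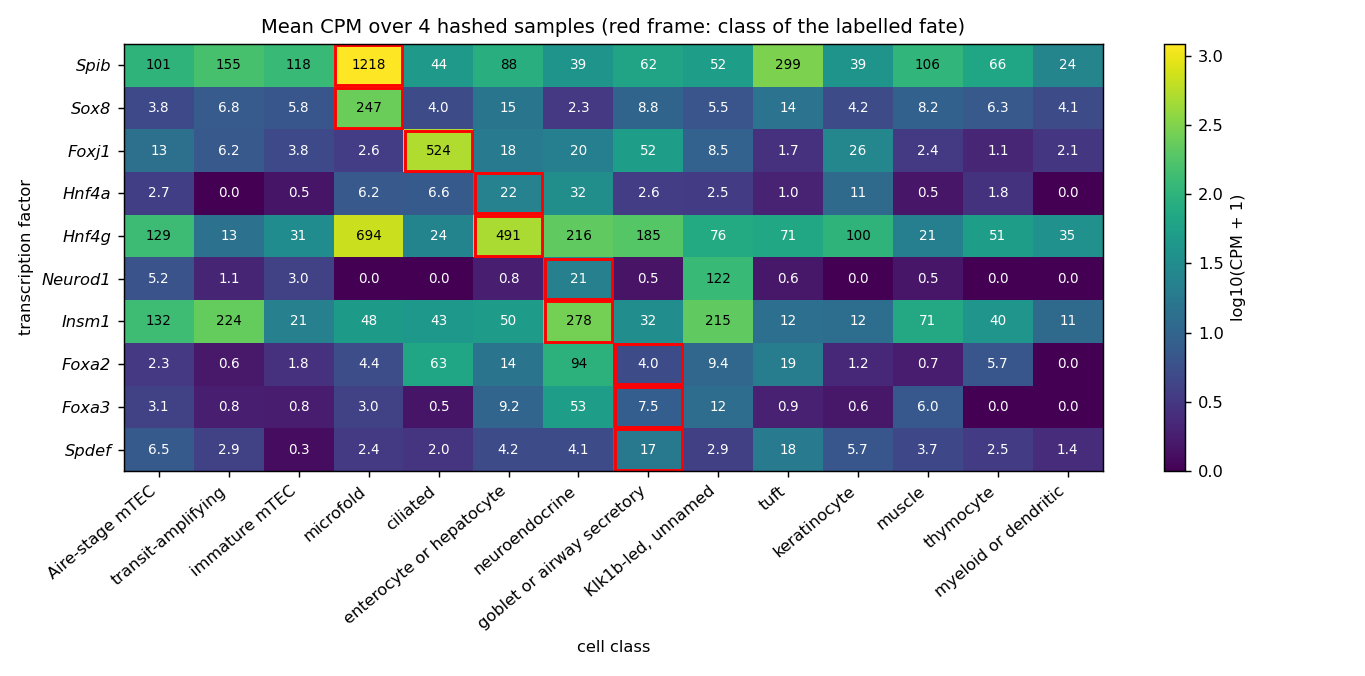
Mean CPM over 4 hashed samples of each factor (vertical axis) in each of 14 cell classes (horizontal axis, all named by likeness to marker lists), with colour on a log10(CPM + 1) scale and a red frame on the class of the labelled fate. The frame and the brightest field of a line coincide for Spib, Sox8, Foxj1 and Insm1. Hnf4a, Hnf4g, Neurod1, Foxa2, Foxa3 and Spdef are brighter outside their frame. For Spdef the fields are close, at 18.1 CPM in tuft-like and 16.6 CPM in secretory-like cells.

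Both microfold factors were highest in their labelled class, Sox8 with the widest margin over the next class among the 10 factors. For Spib that margin was 4.07-fold, below the 10.1-fold of Foxj1. Spib (chromosome 7, 44525993 to 44532071, minus strand, GRCm38) stood at 1190 and 1146 CPM in microfold-like cells of PBS 1 and PBS 2 and at 1157 and 1378 CPM in those of spermidine 1 and spermidine 2. Tuft-like cells, which resemble chemosensory cells of gut and airway, followed at 299 ± 24.9 CPM (SD, n = 4), and dividing transit-amplifying-like cells at 155 ± 6.34 CPM (SD, n = 4). The ranges of these 3 classes did not overlap. Spib was thus not confined to microfold-like cells, which held 25.6% of its UMIs in all assigned cells, against 35.3% in the more numerous tuft-like cells. Sox8 (chromosome 17, 25565892 to 25570686, minus strand, GRCm38) was at 268, 264, 233 and 223 CPM in microfold-like cells of PBS 1, PBS 2, spermidine 1 and spermidine 2. The next class, enterocyte- or hepatocyte-like cells, had 14.8 ± 16.3 CPM (SD, n = 4), so the microfold-like mean was 16.7-fold higher. Below the top class the Sox8 levels of neighbouring classes overlapped.

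The 250 bases upstream of the annotated starts of Spib and Sox8 are shown because these factors shared the most cells of the pairs labelled with 1 fate (given below). They come from RefSeq (GRCm38.p6), read 5′ to 3′ on the strand of the gene, with capitals on matches to a GC box (GGGCGG or its reverse complement) or a CCAAT box (either strand).
Spib, chr7:44532072-44532321, minus strand: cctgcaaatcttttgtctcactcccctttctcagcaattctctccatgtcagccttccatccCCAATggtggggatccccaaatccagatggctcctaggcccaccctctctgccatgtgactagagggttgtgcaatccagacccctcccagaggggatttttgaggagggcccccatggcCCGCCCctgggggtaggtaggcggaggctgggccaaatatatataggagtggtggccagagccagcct
Sox8, chr17:25570687-25570936, minus strand: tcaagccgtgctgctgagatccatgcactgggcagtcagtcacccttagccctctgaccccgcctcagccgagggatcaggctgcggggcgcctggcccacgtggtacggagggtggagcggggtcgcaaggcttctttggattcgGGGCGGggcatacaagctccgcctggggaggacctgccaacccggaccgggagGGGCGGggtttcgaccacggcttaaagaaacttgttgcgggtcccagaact
The Spib sequence held 1 GC box and 1 CCAAT box and had 58% G and C, and that of Sox8 held 2 GC boxes and no CCAAT box and had 65.6% G and C. Over 32851 mouse upstream sequences of that length the median was 52.4%, 32.7% held a GC box and 33.8% a CCAAT box. The ETS core GGAAGT, searched on both strands, was in neither sequence and in 19.7% of all. A match describes letters and is not evidence of binding.

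Foxj1 (chromosome 11, 116330704 to 116335399, minus strand, GRCm38) marked the ciliated-like class. Its level there was 559 and 558 CPM in PBS 1 and PBS 2 and 393 and 586 CPM in spermidine 1 and spermidine 2. Only 56 cells made up the class, and they held 53.7% of the Foxj1 UMIs of all assigned cells. The secretory-like class came next at 51.8 ± 7.70 CPM (SD, n = 4), with no overlap, followed by keratinocyte-like cells at 25.6 ± 16.3 CPM (SD, n = 4), which overlapped with neuroendocrine-like cells at 20.3 ± 4.92 CPM (SD, n = 4).

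The hepatocyte nuclear factors were spread over several classes. Hnf4a (chromosome 2, 163506808 to 163572910, plus strand, GRCm38) had 34.2, 39.4, 23.6 and 32.4 CPM in neuroendocrine-like cells of PBS 1, PBS 2, spermidine 1 and spermidine 2, and 40.1, 12.9, 14.3 and 21 CPM in enterocyte- or hepatocyte-like cells of the same samples. These ranges overlapped, and in 1 of the 4 samples, PBS 1, the labelled class was the higher. Hnf4g (chromosome 3, 3508030 to 3658052, plus strand, GRCm38) had 782, 748, 581 and 666 CPM in microfold-like cells and 305, 422, 638 and 600 CPM in enterocyte- or hepatocyte-like cells, in the same order of samples. The microfold-like level was above that of enterocyte- or hepatocyte-like cells in 3 samples and below it in spermidine 1. Neuroendocrine-like cells followed at 216 ± 44.99 CPM and secretory-like cells at 185 ± 66.8 CPM (SD, n = 4 each), which overlapped. In Aire-stage mTECs Hnf4g was at 129 ± 13.8 CPM (SD, n = 4), and these held 29.3% of its UMIs.

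Insm1 was shared by endocrine-like cells and precursors. Insm1 (chromosome 2, 146221921 to 146225020, plus strand, GRCm38), a zinc finger factor, was at 293, 279, 316 and 225 CPM in neuroendocrine-like cells of PBS 1, PBS 2, spermidine 1 and spermidine 2. Transit-amplifying-like cells had 224 ± 18.5 CPM (SD, n = 4) and the Klk1b-led cells 215 ± 56.2 CPM (SD, n = 4), and both ranges overlapped with the first. Aire-stage mTECs were at 132 ± 13.7 CPM (SD, n = 4), below the range of all 3. Neuroendocrine-like cells held 15.1% of the Insm1 UMIs, transit-amplifying-like cells 35.9% and Aire-stage mTECs 34.7%.

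Neurod1 was carried by very few cells. Neurod1 (chromosome 2, 79452521 to 79456751, minus strand, GRCm38) had 441 UMIs in 50 of 4496 epithelial cells, and the 24 cells with at least 5 UMIs held 90.9% of them. Of these 24 cells 9 were Klk1b-led, 7 Aire-stage and 6 neuroendocrine-like, and 19 counted as single cells when all 6 hashtags were read. Of the 9 Klk1b-led cells 6 had a Klk1b26 UMI, and those with the most Neurod1, at 60 and 33 UMIs, had 0. Of the 24 cells 18 had a UMI of Chga, a granin of endocrine vesicles, 16 of Insm1 and 11 of Aire. They came as 5, 2, 12 and 5 cells from PBS 1, PBS 2, spermidine 1 and spermidine 2. The level in Klk1b-led cells ran from 1.94 CPM in PBS 2 to 374 CPM in spermidine 1, where 1 cell with 60 UMIs held 41.4% of the Neurod1 UMIs of that class and sample. Neuroendocrine-like cells were at 21.02 ± 16.5 CPM (SD, n = 4), from 7.89 to 42.2 CPM, a range that overlapped with the Klk1b-led one and lay above it in PBS 2.

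Foxa2 and Foxa3 were neuroendocrine-like rather than secretory-like in level. Foxa2 (chromosome 2, 148042877 to 148046969, minus strand, GRCm38) was at 112, 88.7, 105 and 71.8 CPM in neuroendocrine-like cells of PBS 1, PBS 2, spermidine 1 and spermidine 2. In ciliated-like cells it was at 91.6, 69.4, 27.2 and 65.1 CPM, which overlapped, and in tuft-like cells at 18.5 ± 3.45 CPM (SD, n = 4). Its secretory-like level of 4.04 CPM had rank 8 of the 14 classes and rested on 13 UMIs. Foxa3 (chromosome 7, 19013284 to 19023538, minus strand, GRCm38) was at 62.6, 68.0, 37.9 and 42.2 CPM in neuroendocrine-like cells, above the Klk1b-led cells at 11.7 ± 6.83 CPM and the secretory-like cells at 7.47 ± 2.57 CPM (SD, n = 4 each). Neuroendocrine-like cells held 57.2% of the 460 Foxa3 UMIs.

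Spdef was low and had similar levels in a pair of classes. Spdef (chromosome 17, 27714352 to 27728955, minus strand, GRCm38) was at 19.8, 16.4, 18.3 and 17.8 CPM in tuft-like cells and at 15.1, 18.2, 17.2 and 15.7 CPM in secretory-like cells of PBS 1, PBS 2, spermidine 1 and spermidine 2. These levels did not differ beyond their spread. Of the Spdef UMIs of all assigned cells, tuft-like cells held 52.5%, Aire-stage mTECs 22.2% and secretory-like cells 7.87% (51 UMIs). Every other class was at 6.46 CPM or lower on average, the highest of them the Aire-stage class at 6.46 ± 3.20 CPM (SD, n = 4).

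Free RNA can put UMIs of a factor into cells that do not express it, so cells that should lack the factors were counted at the same depth. With each cell reduced at random to 2000 UMIs, 2 of 126 thymocyte-like cells (1.59%, median depth 6334 UMIs before thinning) had a Spib UMI, against 80.3% of microfold-like cells (median 12953). Hnf4g and Insm1 were each found in 4 of 126 thymocyte-like cells (3.17%), and Sox8 and Foxa2 in 1 each (0.794%). For Foxj1, Hnf4a, Neurod1, Foxa3 and Spdef the count was 0 of 126, which allows a share of up to 2.38% (counting error only). Some class shares were at or below that background: Hnf4g in transit-amplifying-like cells (3.01%) and Insm1 in tuft-like cells (2.01%). These shares could not be told apart from it and are therefore not read as expression. Thymocyte-like cells also held Aire, at 284 ± 215 CPM (SD, n = 4), from 26.7 to 553 CPM. The cell with the most Aire held 30.7% of these UMIs. Whether they came from free RNA or from mTECs counted among these cells was not tested. The background may thus hold more than free RNA.

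Several factors were often detected in the same cell, where a UMI of free RNA also counts as detection. At 5000 UMIs per cell (4016 epithelial cells with that depth), 20.9% of cells had no UMI of any factor, 41.8% had 1 factor, 26.6% had 2, 8.86% had 3, 1.64% had 4 and 0.224% had 5 or more. The share with at least 2 factors was 40.1%, 36.9%, 37.9% and 33.2% in PBS 1, PBS 2, spermidine 1 and spermidine 2. With at least 2 UMIs required for a factor to count, 9.76% ± 1.42 (SD, n = 4) had 2 or more. Counted by fate instead of by factor, 44.1% of cells had factors of 1 fate 28.2% of 2 and 6.18% of 3. Doublets of 2 cells would also show several factors: among 921 hashtag doublets 40.3% had at least 2, and without cells that HT6 and HT7 mark as doublets the share was 36.0% ± 2.65 (SD, n = 4). Doublets within a hashed sample carry 1 hashtag and were not removed.

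Some pairs shared cells above the product of their shares. Of the 266 cells with Sox8, 82.7% also had Spib, which 45.8% of all cells had, a ratio of 1.81 over 220 cells. Foxa3 cells had Foxa2 in 22.9% against 6.08% of all cells (ratio 3.77, 22 cells) and Insm1 in 55.2% against 25.4% (ratio 2.17, 53 cells). Hnf4a cells had Hnf4g in 54.4% against 30.5% (ratio 1.79, 49 cells). Within a single class the gaps were mostly smaller: in microfold-like cells alone, 97.5% of Sox8 cells and 96.2% of all cells had Spib, and in neuroendocrine-like cells 36.2% of Foxa3 cells and 37.5% of all cells had Foxa2. For Hnf4a and Hnf4g the classes differed: 71.4% of 35 Hnf4a cells and 50.8% of all 256 neuroendocrine-like cells had Hnf4g, while in enterocyte- or hepatocyte-like cells it was 68.4% of 19 Hnf4a cells and 71.1% of all 152. In Aire-stage cells the shares were 26.7% of 15 and 35.0% of all 1086.

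Other pairs shared fewer cells than the product of their shares. Sox8 and Foxj1 met in 5 cells (ratio 0.31), Sox8 and Foxa3 in 1 (0.16), Spib and Foxa3 in 17 (0.39) and Insm1 and Spdef in 15 (0.41). Neurod1 and Insm1, both labelled neuroendocrine, met in 8 of the 28 cells with Neurod1 at this depth, a ratio of 1.12. Neurod1 was found in 0 cells with Hnf4a and in 0 with Spdef, which at 28 Neurod1 cells says little. These ratios compare cells of 4 samples pooled and carry no test.

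**Figure D2:**
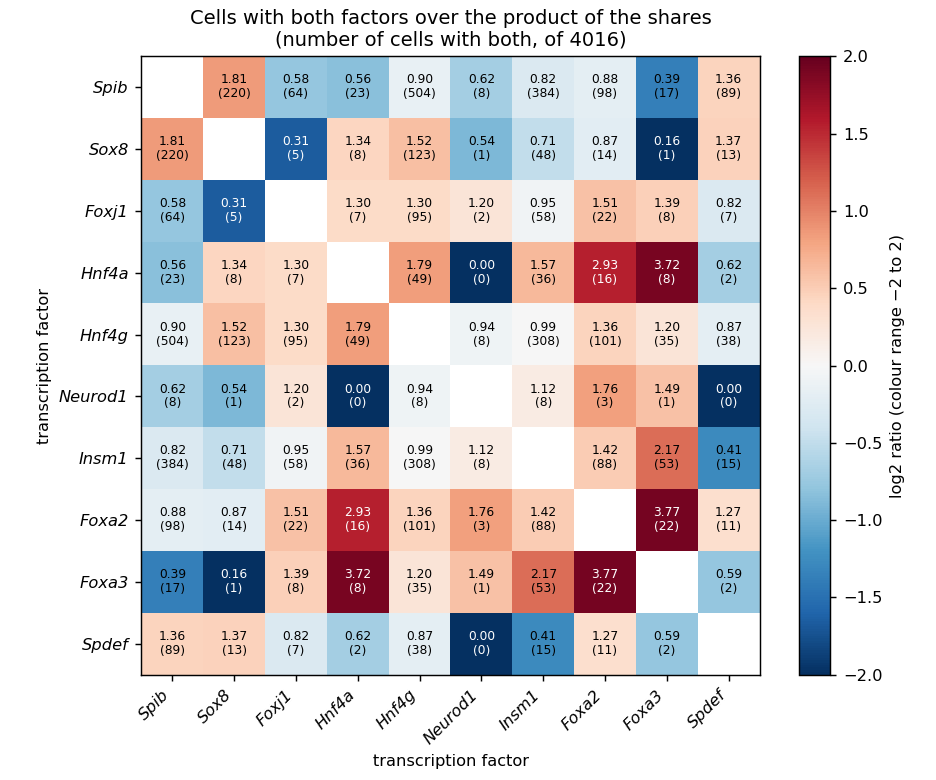
Ratio of the cells with both factors to the product of the shares of each, for the 45 pairs among 4016 epithelial cells at 5000 UMIs, on a log2 colour scale held between -2 and 2, with the ratio and the number of cells printed in each field. Red fields gather among Hnf4a, Foxa2, Foxa3 and Insm1 and at Spib with Sox8. Dark blue fields include Sox8 with Foxj1 (0.31) and Sox8 with Foxa3 (0.16). They also include Neurod1 with Hnf4a and Neurod1 with Spdef, where no cell had both and Neurod1 cells were few.

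The genes most like each factor were then listed across epithelial cells. Likeness was the Pearson correlation of log-scaled counts over cells within each hashed sample, averaged over the 4, among 16267 genes, and cells of a sample share depth and library, so no p is given. For Sox8 the closest genes were the chemokine genes Ccl9 (0.55) and Ccl6 (0.54) with Gm50069 (0.55), Tnfaip2 (0.51) and Serpinb6a (0.51). For Spib these were Fyb (0.45), Sox8 (0.42), Inpp5d (0.40), Ptpn18 (0.40) and Serpinb6a (0.39). Foxj1 was closest to 1700016K19Rik (0.54), the dynein light chain gene Dynlrb2 (0.54), Wdr63 (0.51), Nme5 (0.51) and Lrrc23 (0.51). The first 2 genes for Foxa2 were the vesicle genes Stxbp5l (0.38) and Snap25 (0.37), which also led for Hnf4a in the other order (Snap25 0.29, Stxbp5l 0.28). Foxa2 went on with Clca3b (0.36), Elavl4 (0.36) and Ptprn2 (0.35), and Hnf4a with Rimbp2 (0.27), Fam183b (0.26) and Fhl2 (0.26).

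Of the remaining factors, Foxa3 was closest to Ffar2 (0.42), Car8 (0.41), Stxbp5l (0.40), Clca3b (0.40) and the calcium channel gene Cacna2d1 (0.40). Hnf4g was closest to Pard3b (0.45), Mgam2-ps (0.44), Immp2l (0.42), the gut mucin gene Muc13 (0.39) and Nostrin (0.38). Insm1 was closest to Spock3 (0.42), the synaptotagmin gene Syt1 (0.41), H2-Eb2 (0.38), Irf8 (0.37) and Tmem158 (0.37). Spdef had low values throughout, with Aldh2 (0.26) and the tuft genes Alox5ap (0.24) and Avil (0.23) among its 5 beside L1cam (0.23) and Sh2d7 (0.23). Neurod1, which had a UMI in fewer than 20 cells of at least 1 sample, had Ppp1r14a (0.27), Gm31698 (0.26), Tgm3 (0.24), the endocrine factor gene Pax6 (0.21) and Gm42447 (0.21). Among the 50 genes most like Sox8 were 8 of the 12 microfold markers, and among those most like Foxj1 5 of 14 ciliated markers. The count was 2 of 12 microfold markers for Spib, 1 of 16 enterocyte or hepatocyte markers each for Hnf4a and Hnf4g, and 5 and 2 of 14 neuroendocrine markers for Neurod1 and Insm1. For Foxa2, Foxa3 and Spdef it was 0 of 16 secretory markers each.

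Detection in Aire-expressing cells was compared within each hashed sample. At 5000 UMIs, 1119 epithelial cells had at least 2 Aire UMIs and are called Aire-expressing, 2375 had 0 and are called Aire-negative, and cells with 1 were left out. Of the Aire-expressing cells 58.6% were Aire-stage and 32.8% transit-amplifying-like, while 42.1% of the Aire-negative cells were tuft-like, so these cells differ in class as well as in Aire. At 2000 UMIs the share of Aire-expressing cells with Hnf4a was 0.735%, with Foxa2 0.481%, with Foxa3 0.452% and with Spdef 1.51%, and Neurod1 was in 0 of 1119. None of these is above 2.38%, the background limit for factors with no UMI in thymocyte-like cells, where Foxa2 was found. Shares this low are not read as expression in Aire-expressing cells as a group. Single cells with Aire did hold Neurod1 before thinning. A transit-amplifying-like cell of spermidine 1 had 24 Neurod1 and 53 Aire UMIs, and an Aire-stage cell of spermidine 1 had 9 and 51. With 6 hashtags read, only the latter counted as a single cell. At 5000 UMIs 79.1% ± 2.16 of Aire-expressing and 79.1% ± 1.44 of Aire-negative cells (SD, n = 4) had a UMI of at least 1 factor.

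Insm1 was the factor that was higher in Aire-expressing cells. It had a UMI in 41.9% ± 5.09 of Aire-expressing and 17.7% ± 0.94 of Aire-negative cells (SD, n = 4), higher in 4 of 4 samples. Summed over all UMIs of those cells, Insm1 was at 58.9, 64.5, 79.7 and 70.3 CPM in Aire-negative and 182, 189, 164 and 196 CPM in Aire-expressing cells of PBS 1, PBS 2, spermidine 1 and spermidine 2. Its log2 fold change was 1.42 (SE 0.10, adjusted p = 0.000107, edgeR with the hashed sample as a block). Of all Insm1 cells 44.8% were Aire-expressing, against 27.9% of all epithelial cells.

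Most of the other factors were lower in Aire-expressing cells. In edgeR 1 of the 10 factors was higher and 8 were lower, beside 31.7% of the 18671 genes tested higher and 30% lower, 61.7% in all. The median log2 fold change was -1.18 over the factors and -0.01 over all genes. Foxa2 was at 22.2, 20.6, 18.3 and 13.1 CPM in Aire-negative and 5.28, 2.77, 2.36 and 2.29 CPM in Aire-expressing cells of PBS 1, PBS 2, spermidine 1 and spermidine 2 (log2 fold change -2.59, SE 0.20, adjusted p = 0.000124, edgeR). The groups were far apart in each sample, and 6.56% of all Foxa2 cells were Aire-expressing. Neurod1 had a log2 fold change of -2.68 (SE 0.48, adjusted p = 0.00354, edgeR), which without the block was -2.12 with an adjusted p of 0.0533. Hnf4a had -1.66 (SE 0.29, adjusted p = 0.00318), Foxa3 -1.41 (SE 0.21, adjusted p = 0.00164) and Sox8 -1.37 (SE 0.14, adjusted p = 0.000428).

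Foxj1, Hnf4g and Spib fell less far between these cells, and Spdef did not pass. Foxj1 was at 28.7, 29.6, 22.7 and 27.6 CPM in Aire-negative and 21.5, 9.81, 15.6 and 9.18 CPM in Aire-expressing cells, lower in 4 of 4 samples (log2 fold change -0.99, SE 0.24, adjusted p = 0.0123, edgeR). Hnf4g was at 143, 157, 156 and 179 CPM and 82.5, 81.9, 89.3 and 70.2 CPM (-0.97, SE 0.10, adjusted p = 0.000447). Spib was at 221, 222, 209 and 209 CPM and 178, 166, 153 and 149 CPM (-0.42, SE 0.05, adjusted p = 0.000746), while its share of positive cells overlapped at 44.6% ± 3.98 and 46.7% ± 3.28 (SD, n = 4). Spdef had a log2 fold change of -0.38 (SE 0.29, adjusted p = 0.291, edgeR). For shares of cells the exact sign-flip permutation test over 4 samples cannot go below p = 0.125, two-sided, and 8 of the 10 factors had that p, or 0.156 adjusted over the factors by Benjamini-Hochberg.

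**Figure D3:**
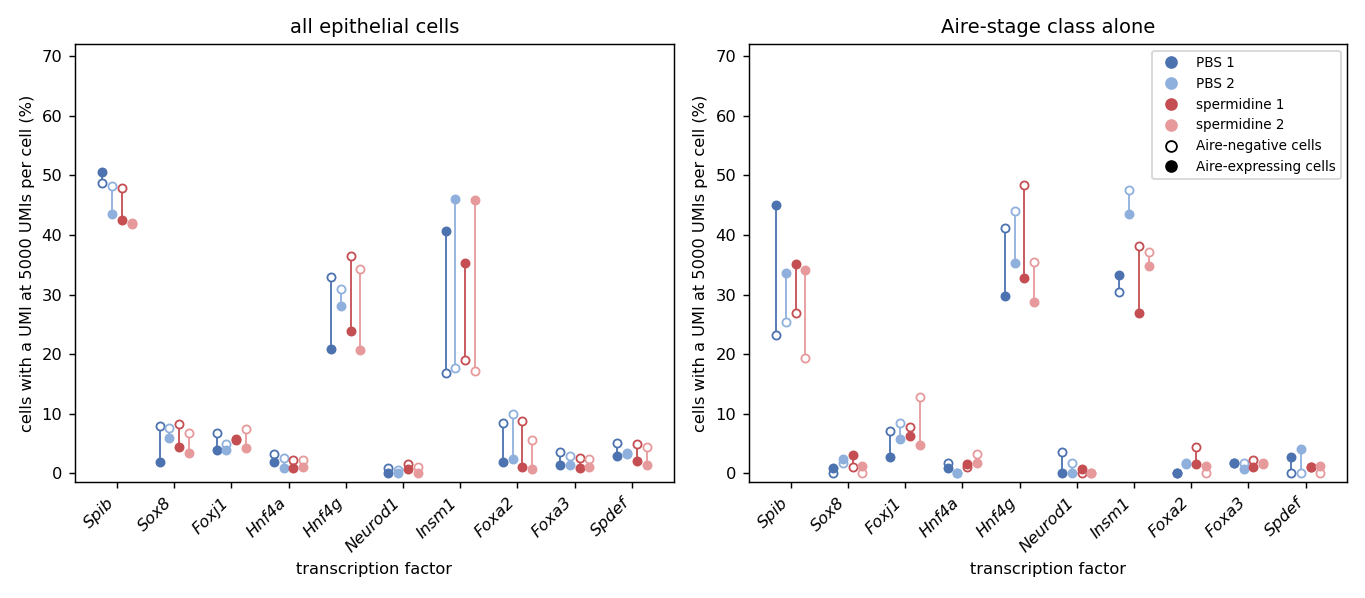
Percent of cells with a UMI of each factor at 5000 UMIs per cell in Aire-expressing (filled) and Aire-negative (open) cells of each hashed sample, over all epithelial cells (left) and over the Aire-stage class alone (right), with a line joining the points of a sample. On the left the Insm1 points of Aire-expressing cells lie far above the open ones in all 4 samples, and on the right they lie above in 1 of 4 samples, while the Spib points of Aire-expressing cells lie above in 4 of 4.

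Within the Aire-stage class alone, a comparison added after the data were seen, the picture was different. There 656 Aire-expressing and 266 Aire-negative cells were compared, 18% of 13581 genes were called (10.6% higher and 7.45% lower), and 5 of the 10 factors had counts enough to be tested. Spib was higher in Aire-expressing cells, with a log2 fold change of 0.85 (SE 0.12, adjusted p = 0.0088, edgeR), and was found in 37.0% ± 5.41 against 23.7% ± 3.30 of cells (SD, n = 4), higher in 4 of 4 samples. Hnf4g was lower here too, at -0.61 (SE 0.09, adjusted p = 0.0100, edgeR). Insm1 had -0.21 (SE 0.11, adjusted p = 0.237), Foxj1 -0.11 (SE 0.23, adjusted p = 0.792) and Spdef 2.31 (SE 0.74, adjusted p = 0.0816), in edgeR. The Spib difference thus turned its direction within this class, and that of Insm1 was no longer called. The class joins the clusters led by Mt4 and by Gm35330, which differ. Aire was at 932 ± 39.4 CPM in the former and 446 ± 57.0 CPM in the latter (SD, n = 4). In that order, Insm1 was at 90.5 ± 9.85 and 203 ± 23.6 CPM (SD, n = 4). Hnf4g was at 102 ± 17.4 and 176 ± 13.2 CPM, and Spib at 106 ± 12.6 and 93.1 ± 16.1 CPM (SD, n = 4). The part of the clusters in these differences was not tested.

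Markers of other cells moved with Aire in these sums too. The 16 tuft markers were all lower in Aire-expressing cells, where they summed to 645 to 1176 CPM against 6569 to 8353 CPM in Aire-negative cells. Of the myeloid or dendritic markers 8 of the 10 tested were higher, and the list summed to 1139 to 1288 CPM against 482 to 719 CPM. All 12 transit-amplifying markers were higher (median log2 fold change 2.65), at 556 to 902 CPM against 90.8 to 199 CPM. Of 9 thymocyte markers 5 were higher and 2 lower (median 1.31, 49.1 to 66.8 against 39.8 to 60.9 CPM), and of 5 erythroid markers 3 were higher (median 1.64, 99.5 to 930 against 25.05 to 190 CPM). The B cell markers, from cells that also make Spib, summed to 50.03 to 59.2 CPM in Aire-expressing and 65.8 to 81.6 CPM in Aire-negative cells, and no marker of these lists was at 0 in every sample. Their part in the factors' values was not tested.

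Detection was also counted by the amount of Aire. Insm1 was found in 17.7% of cells with 0 Aire UMIs, 28.3% with 1, 43.8% with 2 to 3, 40.6% with 4 to 7 and 41.6% with 8 or more per 5000 UMIs (mean over 4 samples). Hnf4g went from 33.7% over 31.2%, 23.6% and 24.6% to 20.6% in the same order. Spib stayed between 42.6% and 48.8%, and Foxa3 went from 2.86% over 2.35%, 2.15% and 0.844% to 0.732%. Whether Aire-expressing and Aire-negative cells differed more with spermidine than with PBS was tested as an interaction, which called 0 of 20841 genes in edgeR, and the smallest p of a factor was 0.0968 (Neurod1, adjusted p = 0.802).

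Spermidine was then compared with PBS over all epithelial cells, where edgeR called no factor. It called 0% of 22514 genes, 17.9% (4023 genes) had an unadjusted p under 0.05, and DESeq2 called 780 (3.46%). The factors' median log2 fold change was -0.35, and that over all genes was 0.00. In 7 of the 10 factors both spermidine values were below both PBS values, as in 26.1% of all genes, and in 1, Insm1, both were above, as in 25.8% of all genes. Of the factors 6 had an unadjusted p under 0.05 (Spib, Sox8, Foxj1, Insm1, Foxa2 and Foxa3). Without the low-count filter edgeR called 7.47% of 38497 genes and 5 of the factors, with Foxj1, Foxa2 and Foxa3 lower and Neurod1 and Insm1 higher. Without PBS 2 it called 412 genes and none of the factors. In such sums fewer cells of a type and less RNA per cell cannot be told apart.

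Foxa2 showed the smallest p of the 10. It was at 18.9 and 15.5 CPM in PBS 1 and PBS 2 and at 10.3 and 8.65 CPM in spermidine 1 and spermidine 2, a log2 fold change of -0.86 (SE 0.16, adjusted p = 0.131, edgeR). DESeq2 called it (-0.86, adjusted p = 0.0269). Foxa3 was at 7.83 and 6.37 CPM against 4.04 and 4.12 CPM (-0.80, SE 0.20, adjusted p = 0.166, edgeR). Neither pair of groups overlapped. Neuroendocrine-like cells, the class with the highest level of both, were 6.69% ± 1.77 of cells with PBS and 4.37% ± 0.71 with spermidine (SD, n = 2). They held 43.1% of the Foxa2 UMIs of all assigned cells, and tuft-like cells held 30.7%. Tuft-like cells were 30.8% ± 4.84 of cells with PBS and 22.5% ± 0.45 with spermidine (SD, n = 2). The part of these shares in the Foxa2 values was not tested.

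The factors of microfold and ciliated fates were also below PBS without passing. Sox8 was at 18.9 and 19.9 CPM with PBS and 16.3 and 15.0 CPM with spermidine (-0.31, SE 0.10, adjusted p = 0.221, edgeR), and Spib at 209 and 202 CPM against 179 and 185 CPM (-0.17, SE 0.06, adjusted p = 0.257). Foxj1 was at 27.7 and 23.5 CPM against 19.6 and 19.3 CPM (-0.40, SE 0.11, adjusted p = 0.186). Groups did not overlap for these 3 factors. The share of microfold-like cells was 5.12% ± 0.88 and 4.21% ± 0.33, that of tuft-like cells, which hold the most Spib UMIs, 30.8% ± 4.84 and 22.5% ± 0.45, and that of ciliated-like cells 1.36% ± 0.51 and 0.93% ± 0.33 with PBS and spermidine (SD, n = 2).

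Insm1 and Neurod1 were the factors above 0 on the log2 scale. Insm1 was at 88.4 and 109 CPM with PBS and 121 and 127 CPM with spermidine, with no overlap (0.33, SE 0.11, adjusted p = 0.231, edgeR). Aire-stage cells made up 21.3% ± 4.79 and 31.1% ± 0.76 and transit-amplifying-like cells 8.99% ± 1.81 and 14.6% ± 0.61 of cells with PBS and spermidine (SD, n = 2). Neurod1 was at 4.93 and 1.46 CPM against 9.50 and 4.00 CPM, which overlapped (1.07, SE 0.65, adjusted p = 0.455). Class shares over 2 samples against 2 cannot go below p = 0.333 in the exact permutation test.

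Hnf4a, Hnf4g and Spdef completed the set. Hnf4a was at 6.61 and 4.56 CPM with PBS and 3.63 and 4.00 CPM with spermidine (-0.56, SE 0.26, adjusted p = 0.338, edgeR), and Spdef at 10.4 and 7.13 CPM against 6.56 and 6.91 CPM (-0.39, SE 0.23, adjusted p = 0.432). Hnf4g was at 133 and 125 CPM against 124 and 132 CPM, which overlapped (-0.01, SE 0.07, adjusted p = 0.952). As shares of cells at 5000 UMIs, Spib was found in 49.0% and 46.9% with PBS and 44.9% and 41.6% with spermidine, Foxa2 in 7.205% and 7.48% against 5.76% and 3.57%, and Insm1 in 21.7% and 27.1% against 25.7% and 28.5%. The Insm1 shares overlapped, while its CPM did not.

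**Figure D4:**
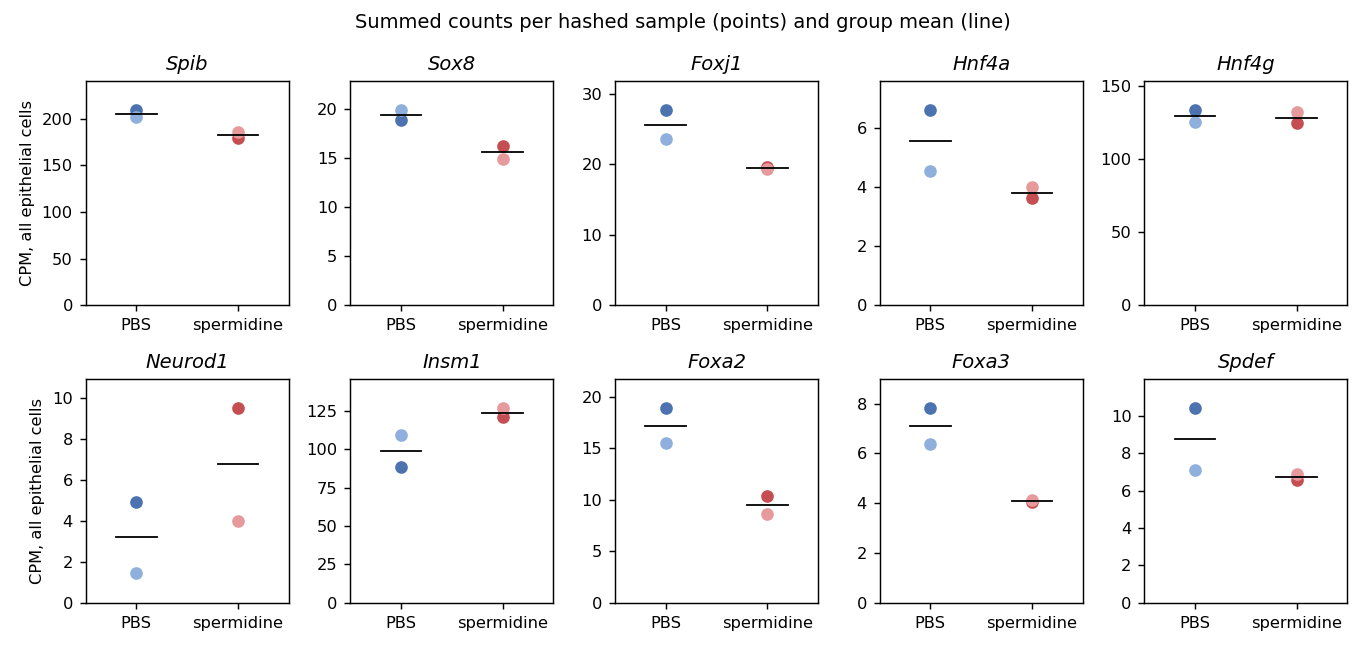
CPM of each factor summed over all epithelial cells of a hashed sample (points, darker for replicate 1) and the mean of the 2 samples (line), for PBS and spermidine. The Foxa2 points fall from 18.9 and 15.5 to 10.3 and 8.65, the Hnf4g points overlap, and edgeR called none of the 10 factors.

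Markers of other cells moved beside these values in the same sums. Of the 16 tuft markers 0 were above 0 on the log2 scale (median -0.66), and they summed to 5357 to 6589 CPM with PBS and 3647 to 3868 CPM with spermidine. Of the 16 Aire-stage markers 12 were above 0 (median 0.38), and they summed to 9925 to 13065 CPM and 14807 to 14971 CPM. The 5 erythroid genes were all above 0 on the log2 scale, with a median of 2.29 and a summed level of 58.6 to 60.1 CPM with PBS and 151 to 418 CPM with spermidine. Of the B cell markers, cells that also make Spib, 5 of 7 were above 0 (median 0.44), and their sum was 65.6 to 74.4 CPM and 67.2 to 75.1 CPM. The 12 thymocyte genes summed to 49.4 to 58.4 CPM and 51.2 to 61.6 CPM, and 11 myeloid or dendritic genes to 698 to 752 CPM and 838 to 946 CPM. In edgeR 0 of these markers were called (unadjusted p under 0.05 in 16 tuft, 12 Aire-stage, 4 erythroid, 0 B cell, 1 thymocyte and 3 myeloid or dendritic genes), and none was at 0 in all samples of a group. Their part in the factors' values was not tested.

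Within classes no factor was called by edgeR. Groups without overlap are common with 2 samples each: over all epithelial cells 25.8% of genes were so separated upward and 26.1% downward. Such shares of all genes are not given here for single classes, so a lack of overlap there is a description alone. Tuft markers moved in the same sums: in microfold-like cells 0 of 13 were above 0 (median -1.13, 549 to 1447 CPM with PBS and 249 to 652 CPM with spermidine), in secretory-like cells 0 of 15 (median -0.85, 1659 to 3285 and 1007 to 1302 CPM). In enterocyte- or hepatocyte-like cells 9 of 9 were above 0 (median 1.76, 256 to 454 and 520 to 1465 CPM), and in neuroendocrine-like cells 15 of 15 (median 0.75, 873 to 1349 and 1786 to 1922 CPM). In edgeR none was called, and an unadjusted p under 0.05 was found for 6, 6, 4 and 6 of them in these classes. Their part in the factors' values was not tested. In microfold-like cells, with 0.0117% of 8542 genes called, Spib was at 1240 and 1182 CPM with PBS and 1195 and 1414 CPM with spermidine (log2 fold change 0.11, SE 0.17, adjusted p = 1.0). Sox8 was at 279 and 272 CPM against 240 and 229 CPM (-0.23, SE 0.20) and Hnf4g at 815 and 772 CPM against 599 and 684 CPM (-0.31, SE 0.18), each with an adjusted p of 1.0 in edgeR and no overlap of the groups. The single gene called there was Igfbp5 (-3.18), a growth factor binding protein, named after its values were seen.

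Hnf4g pointed the other way in enterocyte- or hepatocyte-like cells, where 0% of 8674 genes were called by edgeR, 429 had an unadjusted p under 0.05 and DESeq2 called 28. Hnf4g was at 318 and 455 CPM with PBS and 650 and 619 CPM with spermidine, without overlap (0.72, SE 0.26, adjusted p = 0.973, edgeR). Hnf4a was at 41.8 and 13.96 CPM against 14.6 and 21.7 CPM, which overlapped (-0.67, SE 0.56, adjusted p = 0.982), and without PBS replicate 1 its log2 fold change was 0.37.

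In neuroendocrine-like cells 0.00908% of 11014 genes were called, the single one being Sgcz (3.34), which was named after its values were seen and is also among the 3 leading genes of a tuft-like cluster. Foxa3 was at 63.5 and 69.6 CPM with PBS and 38.4 and 44.6 CPM with spermidine, without overlap (-0.69, SE 0.21, adjusted p = 1.0, edgeR). Foxa2 was at 113 and 90.8 CPM against 107 and 75.8 CPM, which overlapped (-0.15, SE 0.22, adjusted p = 1.0). Neurod1 was at 8.01 and 8.07 CPM against 26.5 and 44.6 CPM (2.09, SE 0.40, adjusted p = 0.620). Those Neurod1 values rest on 15, 8, 31 and 30 UMIs, and in spermidine 2 a single cell held 90.0% of them. Without the low-count filter Neurod1 was called there (2.05, adjusted p = 0.000274, edgeR). Insm1 overlapped at 297 and 285 CPM against 321 and 238 CPM (-0.05, SE 0.19, adjusted p = 1.0), and Hnf4g did not overlap at 204 and 172 CPM against 221 and 291 CPM (0.43, SE 0.19, adjusted p = 1.0).

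In the secretory-like class 0% of 9496 genes were called by edgeR, with 477 at an unadjusted p under 0.05 and 7 called by DESeq2. Spdef was level at 15.7 and 18.8 CPM with PBS and 17.99 and 16.5 CPM with spermidine (0.02, SE 0.42, adjusted p = 1.0, edgeR), and Foxa2 and Foxa3 had too few counts to be tested. In Aire-stage cells 0% of 18228 genes were called by edgeR, 1155 had an unadjusted p under 0.05 and DESeq2 called 62. The log2 fold changes of the 10 factors there ran from -1.33 (Neurod1) to 0.63 (Sox8), with a median of 0.03 and adjusted p of 0.866 or more. Ciliated-like cells were not fitted, since 1 sample had 7 of them, and their Foxj1 values are those given by class.

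**Figure D5:**
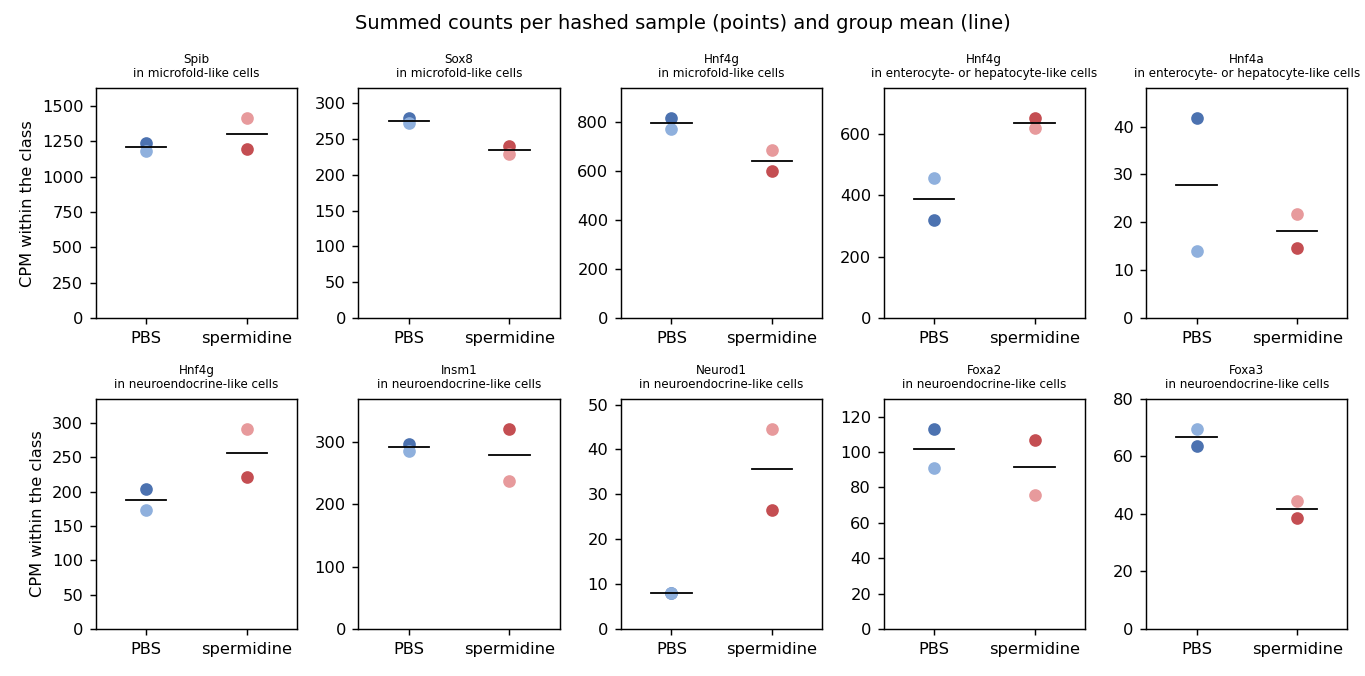
CPM of the factors within the classes where they were highest or labelled, per hashed sample (points, darker for replicate 1) with the mean of the 2 samples (line). Hnf4g points are lower with spermidine in microfold-like cells and higher in enterocyte- or hepatocyte-like cells, Neurod1 points are higher and Foxa3 points lower in neuroendocrine-like cells, and edgeR called none of them.

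Other genes of the same fates were counted beside the factors. With spermidine, over all epithelial cells, 0 of 14 ciliated markers were called and 0 were above 0 on the log2 scale (median -0.55), 0 of 14 neuroendocrine markers were called and 5 were above 0 (median -0.20), and 0 of 12 microfold markers were called and 5 were above 0 (median -0.03). The smallest p values belonged to Fam183b (-0.95, adjusted p = 0.138) and Tppp3 (-0.48, adjusted p = 0.139) for ciliated, Chgb (-0.74, adjusted p = 0.123) and Stxbp5l (-0.89, adjusted p = 0.130) for neuroendocrine, and the chemokine genes Ccl6 (-0.46, adjusted p = 0.130) and Ccl20 (-0.59, adjusted p = 0.130) for microfold, in edgeR. Enterocyte or hepatocyte markers were called in 0 of 16 (median -0.27, 4 above 0) and secretory markers in 0 of 16 (median -0.29, 7 above 0). Of 24 other transcription factors of mimetic fates 0 were called and 10 were above 0 (median -0.19). An unadjusted p under 0.05 in edgeR was found for 8 ciliated, 4 neuroendocrine, 4 microfold, 6 enterocyte or hepatocyte and 2 secretory markers and for 10 of the other factors.

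Among those other factors, Foxi1, the ionocyte factor, was at 1.904 (SE 0.27, adjusted p = 0.123) in edgeR. Myod1, the muscle factor, was at -3.23 (SE 0.47, adjusted p = 0.123) and Ehf at -0.41 (SE 0.07, adjusted p = 0.126). In the comparison by Aire, 3 of the 23 tested were higher and 10 lower in Aire-expressing cells, with a median of -0.63, beside 31.7% of all genes higher and 30% lower. The gut factor Cdx1 (1.83, SE 0.06) was higher, and the muscle factor Myog (-3.61, SE 0.11) and the ciliary factor Rfx3 (-1.63, SE 0.06) lower, each with an adjusted p of 1.5e-05 in edgeR. Of the fates' marker lists, read against the same shares of all genes, those lower were 8 of 12 microfold, 11 of 14 ciliated, 9 of 14 neuroendocrine, 6 of 16 enterocyte or hepatocyte and 6 of 16 secretory markers, and 4, 0, 1, 2 and 1 were higher.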

How the data were processed

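The deposited values are raw UMI counts for each gene in each barcode, which per the file headers were produced in Cell Ranger 7.1.0. The submitters' processing notes also name mm10, bcl2fastq and Seurat. No source used here names the annotation behind the counts. Gene positions come from GENCODE for GRCm38. Of 12139 barcodes, 8534 passed minimums of 1000 UMIs and 500 genes and a mitochondrial share below 15%. Hashtags were assigned to the 4 samples with Seurat 5.3.0 (HTODemux), which left out 1027 doublets and 2798 barcodes with no hashtag. Cells were clustered with scanpy 1.11.5 (Leiden), with the 10 factors left out of the clustering genes, into 18 clusters. No further doublet caller was run.

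Counts were summed per hashed sample and tested with edgeR 4.0.16 (quasi-likelihood, TMM, default filter on low counts) in R 4.3.3, adjusted by Benjamini-Hochberg over all genes tested, with a threshold of 0.05. Thymocyte-like and myeloid-like cells were kept out of epithelial sums. For shares of cells, each cell was thinned at random to 5000 UMIs, and intervals and limits cover counting error only. DESeq2 1.42.0, other filters and each hashed sample left out were run as alternatives. The edgeR fit was also run on simulated counts with known changes. Those counts had the same spread for every gene, which was not fitted to these data, and no result here rests on that run. The 10 factors were always named, with at most the 2 genes of smallest p in each direction from each fate list and the 5 genes most correlated with each factor. Factors and lists were chosen with earlier results of these data known.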

Additional observations from a re-analysis of the deposited data

Results flagged for a closer look

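Of 82 interaction tests of a factor's spermidine effect between classes, 7 had an unadjusted p under 0.05 and 0 held after adjustment over all genes in edgeR. The 3 cases given here are those where the treatments did not overlap in either class and pointed in opposite directions. They were picked by these same values, and the share of all genes that meet the rule is not given here. Groups of 2 samples that do not overlap reach only p = 0.333 in the exact permutation test. For Sox8 the log2 fold change in microfold-like cells minus that in Aire-stage cells was -0.87 (adjusted p = 1.0, edgeR, 4 of 16167 genes called). For Hnf4g the effect in enterocyte- or hepatocyte-like cells minus that in microfold-like cells was 1.03 (adjusted p = 0.877, 0 of 9848 genes called). For Hnf4g in neuroendocrine-like minus microfold-like cells it was 0.73 (adjusted p = 1.0, 2 of 11402 genes called).

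Epithelial cells without a hashtag entered no comparison, yet 77.7% of 2151 such cells had a UMI of at least 1 factor at 5000 UMIs. Spib was found in 46.5%, Hnf4g in 29.5% and Insm1 in 23.7% of them, and 35.1% had 2 or more factors. Of their 120 Sox8 cells 72.5% had Spib. Insm1 was found in 41.0% of their Aire-expressing and 15.5% of their Aire-negative cells, and Foxa2 in 0.486% and 8.96%.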

How the results depend on the processing

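Counts of genes called depended on the tool and the filter more than the factors' directions did. Over all epithelial cells edgeR called 0 genes, DESeq2 780 and edgeR without the low-count filter 2875. In Aire-stage cells these alternatives gave 62 and 150, in microfold-like cells 6 and 159, in enterocyte- or hepatocyte-like cells 28 and 283, in neuroendocrine-like cells 11 and 296 and in secretory-like cells 7 and 301. The deviations of same-numbered samples had a correlation of -0.026 over genes. With so few samples per treatment this cannot decide whether the replicate numbers pair the samples. With the replicate block the counts were 0 over all epithelial cells and in Aire-stage cells. They were 7 in microfold-like, 5 in enterocyte- or hepatocyte-like, 4 in neuroendocrine-like and 3 in secretory-like cells. In the comparison by Aire, 12184 genes were called with no replicate block and 2446 in the Aire-stage class alone. With 6 hashtags 0 genes were called in microfold-like and 0 in neuroendocrine-like cells, and 2 in the latter with under 10% mitochondrial UMIs. Leaving out 1 hashed sample gave 0 to 412 genes over all epithelial cells (412 without PBS 2), 0 to 1 in Aire-stage, 41 to 101 in microfold-like, 8 to 34 in enterocyte- or hepatocyte-like, 21 to 43 in neuroendocrine-like and 0 to 21 in secretory-like cells, where the lone sample is assumed to vary like the other group. The cause was not tested. Log2 fold changes by treatment changed sign for Hnf4g over all epithelial cells (0.015), Spib in Aire-stage (-0.11) and microfold-like cells (-0.047) and Hnf4a in neuroendocrine-like cells (0.11) with 6 hashtags, for Spib in Aire-stage cells at Leiden resolution 2 (-0.013) and for Spdef in secretory-like cells under 10% mitochondrial UMIs (-0.021). With 1 sample left out they ran from -0.073 to 0.033 for Hnf4g over all epithelial cells, -0.25 to 0.011 for Hnf4g, -0.090 to 0.093 for Spib and -0.22 to 0.10 for Insm1 in Aire-stage cells, -0.019 to 0.23 for Spib in microfold-like cells, -1.19 to 0.37 for Hnf4a in enterocyte- or hepatocyte-like cells, -0.30 to 0.14 for Insm1 and -0.44 to 0.053 for Foxa2 in neuroendocrine-like cells and -0.13 to 0.14 for Spdef in secretory-like cells. By Aire, in the Aire-stage class alone, they were 0.85 for Spib, -0.21 for Insm1 and 2.31 for Spdef. Differences in shares of cells, in percentage points, also turned. For any factor, spermidine minus PBS was 1.48 without thinning. For any factor, Aire-expressing minus Aire-negative was -4.05 at 2000 UMIs, -4.08 with at least 2 UMIs, -0.43 with 6 hashtags, -0.025 with at least 4 Aire UMIs, -4.12 in the Aire-stage class alone and -0.91 to 1.22 with 1 sample left out. For Spib, spermidine minus PBS was 0.145 without thinning, and Aire-expressing minus Aire-negative was 14.5 without thinning and 13.2 in the Aire-stage class alone. The latter comparison gave 1.22 for Sox8, -3.66 for Insm1 and 2.01 for Spdef in that class, 3.65 for Foxj1 without thinning and 0.094 for Spdef with at least 2 UMIs. The share of cells with 2 or more factors was 14.5% at 2000 UMIs and 66.1% without thinning, so depth moves this share, and it was 9.76% at 5000 UMIs with at least 2 UMIs required. Without the filter on low counts the median over all genes in the comparison by Aire was 0.16. Of the results on single factors, 465 of the alternative values kept direction and side of the threshold, 30 turned direction, 7 gained and 2 lost the call. Of the main comparisons' values 51 stayed, 42 moved and 8 turned. The treatment comparison was not run in ciliated-like cells, since 1 sample had 7 of them.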
